A study of Mus musculus and Homo sapiens with 11 samples.

Results

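The non-keratin intermediate filament genes examined here were Vim, Des, Gfap, Nes, Nefl, Nefm, Nefh, Ina, Prph and Synm, 10 of the 24062 genes listed for a mouse mammary tumour line. They were matched by symbol, with earlier results of these data known when the set was chosen. RNA-seq was carried out on polyadenylated RNA of cultured MMTV-ErbB2 cells, a mouse line in which the mouse mammary tumour virus promoter is known to drive the receptor tyrosine kinase ErbB2 in mammary epithelium. The groups were 3 libraries of BrM 2a, the brain metastatic derivative of that line, and 3 libraries of the parental MMTV-ErbB2 line, untreated as far as the labels say. The media (DMEM or RPMI with serum) and the library kits (TruSeq v2 or NEBNext Ultra) are not given per library, so the effect of medium or kit and that of the derivative cannot be told apart. The labels do not name separate cultures, and the 3 BrM libraries share 1 tag in their column names. The p-values therefore cover the spread among the libraries alone, and that spread may be technical. Libraries are called BrM 1 to 3 and parental 1 to 3 after their column names.

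Intermediate filaments are the rope-like filaments of the cytoskeleton, built from rod-shaped proteins that pair and bundle without a nucleotide. Epithelial cells build them from keratins, whereas the type III and type IV proteins treated here mark other lineages. Vimentin is the filament of mesenchymal cells, desmin of muscle, GFAP of astrocytes and peripherin of peripheral neurons. Nestin is the filament of neural and muscle progenitors and needs a partner such as vimentin to polymerise, the neurofilament proteins and alpha-internexin fill axons, and synemin joins vimentin or desmin filaments to adhesion sites.

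Libraries held 29877087 to 46683735 reads assigned to genes. The epithelial markers were present in both groups: Epcam stood at 15669 to 22353 in BrM libraries and 19922 to 22081 in parental libraries, in normalised counts, while Krt7 was at most 4.88 in any library. BrM 1 stood apart from BrM 2 and 3, with 3614 and 3654 tested genes at least 2-fold away from them, against 220 between BrM 2 and 3 and 976 to 1683 between parental libraries. Values of the 10 genes are therefore printed by library.

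RefSeq promoter windows (build GRCm38.p6, 250 bases before to 50 after the start) were matched for 7 of the 10 genes: Vim, Des, Gfap, Nes, Ina, Prph and Synm. Shown here, 5′ to 3′ on the gene's own strand, are those of the gene that fell (Vim), of genes with higher values in BrM (Nes and Gfap), and of Prph, which shares a match with Vim. Capitals mark the matches to 6 motifs searched on both strands: the TATA box (TATAAA), the CCAAT box (CCAAT), the GC box (GGGCGG), an AP-1 site (TGANTCA), a STAT site (TTCCNGGAA) and an E-box (CAGGTG).
Vim, chr2:13574061-13574360, plus strand: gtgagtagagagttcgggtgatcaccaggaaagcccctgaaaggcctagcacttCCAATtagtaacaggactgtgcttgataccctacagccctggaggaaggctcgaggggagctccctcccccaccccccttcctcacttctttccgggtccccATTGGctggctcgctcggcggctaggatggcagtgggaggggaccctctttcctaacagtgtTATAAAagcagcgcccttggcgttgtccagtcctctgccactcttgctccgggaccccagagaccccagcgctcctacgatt
Nes, chr3:87970843-87971142, plus strand: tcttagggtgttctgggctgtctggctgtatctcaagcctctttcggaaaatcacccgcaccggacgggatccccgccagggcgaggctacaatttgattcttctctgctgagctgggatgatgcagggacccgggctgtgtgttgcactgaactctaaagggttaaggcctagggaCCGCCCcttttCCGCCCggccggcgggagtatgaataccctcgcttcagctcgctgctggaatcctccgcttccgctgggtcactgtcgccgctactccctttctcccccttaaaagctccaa
Gfap, chr11:102897151-102897450, minus strand: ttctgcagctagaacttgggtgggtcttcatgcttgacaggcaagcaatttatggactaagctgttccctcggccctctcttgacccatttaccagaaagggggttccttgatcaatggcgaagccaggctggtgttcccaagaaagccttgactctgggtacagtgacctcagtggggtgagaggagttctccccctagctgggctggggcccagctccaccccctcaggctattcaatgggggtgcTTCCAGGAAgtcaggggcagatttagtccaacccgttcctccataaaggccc
Prph, chr15:99054924-99055223, plus strand: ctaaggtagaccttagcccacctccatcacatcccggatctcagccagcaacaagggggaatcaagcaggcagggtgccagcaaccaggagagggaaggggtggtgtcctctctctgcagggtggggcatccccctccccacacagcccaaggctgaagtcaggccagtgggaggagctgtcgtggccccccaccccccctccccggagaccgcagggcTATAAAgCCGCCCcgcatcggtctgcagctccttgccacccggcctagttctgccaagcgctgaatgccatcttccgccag
Vim and Prph were the genes of the 7 with a TATA box, beginning 32 and 31 bases before the start, a motif held by 13.6% of 32817 promoter windows. Nes held 2 GC boxes, a motif of 35.6% of windows, and Vim held 2 CCAAT boxes, a motif of 37.4% of windows. GC boxes also stood in the windows of Des, Ina and Prph, and a CCAAT box in that of Synm. Gfap held the single STAT match of the set, a motif of 1.15% of windows, across its start. No window of the 7 held the AP-1 or E-box letters searched, which 7.81% and 20.2% of windows hold, and no matches overlapped. A match describes these letters and not the binding of a factor.

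The comparison of BrM with parental cells asked how RNA levels differ in the derivative labelled brain metastatic. The filament genes went in opposite directions: Vim fell in BrM, whereas Nes, Gfap and Nefh rose, and Nefl and Nefm had no read in any library. Of the 10 genes, 5 had a mean of at least 10 over the 6 libraries and were tested (limma on log2 of the value plus 1, adjusted over 13821 genes). Of the 5, 3 passed as higher, 1 passed as lower and Synm did not pass. Over all tested genes 28.1% passed, 12.2% as higher and 15.8% as lower. The filter let Nefh through on its BrM values, so the share of the 5 that passed is a description of them alone. Groups did not overlap for 4 of the 5, against 48.0% of all tested genes.

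**Figure D1:**
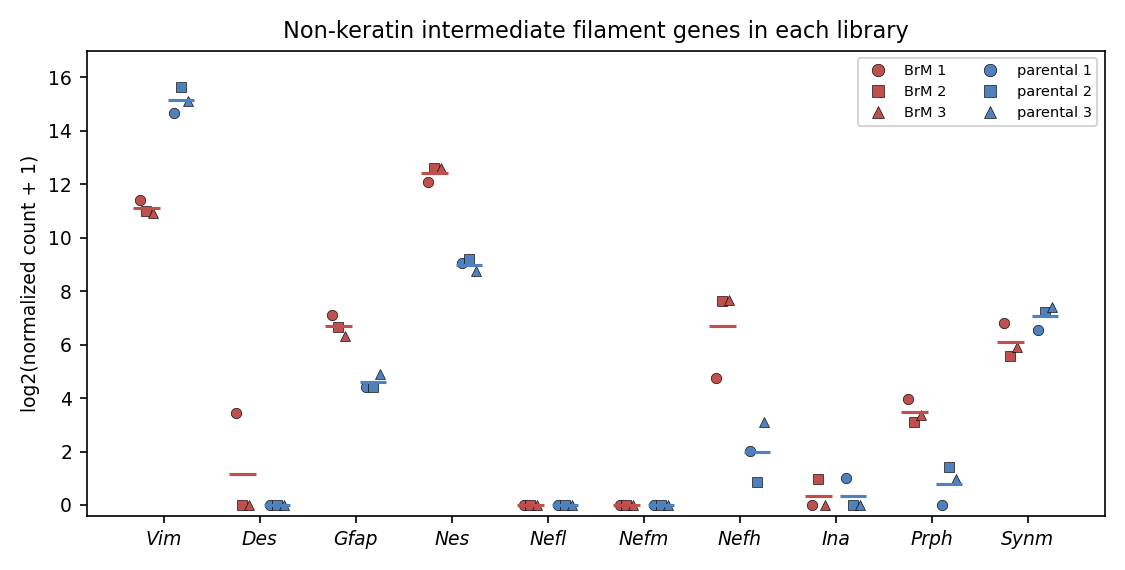
Normalised counts of the 10 genes on the scale log2(value + 1) for each library, BrM in red at the left of each gene and parental in blue at the right, with a bar at the group mean of n = 3. BrM and parental points are separate for Vim, Gfap, Nes, Nefh and Prph, overlap for Synm, and lie at 0 for Nefl and Nefm.

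Among the type III genes, Vim (chromosome 2, GRCm38, 13573927 to 13582826) had normalised counts of 2704, 2069 and 1966 in BrM 1, 2 and 3, against 25962, 50883 and 35608 in parental 1, 2 and 3. Its lowest parental library was 9.60 times its highest BrM library, although Vim was still carried by 2111 to 2215 reads in each BrM library. It was 16.2-fold lower in BrM (log2 fold change -4.02, SE 0.27, limma adjusted p = 0.000249), and the log2 fold change stayed between -4.26 and -3.77 on leaving out any 1 library.

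Gfap (chromosome 11, 102887336 to 102900912) went the other way at a far lower level. It had normalised counts of 138, 99.5 and 79.2 in BrM libraries, against 20.4, 20.6 and 29.3 in parental libraries, from 302 reads over the BrM group and 76 over the parental group. All 3 BrM libraries were above all 3 parental libraries. It rose 4.31-fold (log2 fold change 2.11, SE 0.35, limma adjusted p = 0.00637) and passed on leaving out any 1 library (adjusted p 0.00473 to 0.0326).

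Prph, the filament gene of peripheral neurons (chromosome 15, 99055174 to 99058978), lay below the filter. Its normalised counts were 14.6, 7.65 and 9.31 in BrM libraries, against 0, 1.65 and 0.944 in parental libraries. These rested on 12, 8 and 10 reads in BrM, against 0, 2 and 1 in parental, a ratio of pooled reads of 11.1 (exact 95% interval 3.45 to 56.7, for counting error only). Fitted with no filter on low values, its log2 fold change was 2.69 (limma adjusted p = 0.0108). Des, the muscle filament gene (chromosome 1, 75360329 to 75368579), had 8 reads in BrM 1 and none in any other library of either group. A count of 0 allows 3 reads in a library, or a normalised count of up to 2.47 to 3.66 depending on its depth.

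Among the type IV genes, Nes (chromosome 3, 87971078 to 87980451) had the highest values. Its normalised counts were 4311, 6306 and 6317 in BrM libraries, against 525, 586 and 431 in parental libraries. BrM 1 was lower than BrM 2 and 3, and the lowest BrM library was still 7.36 times the highest parental library. Nes rose 10.9-fold (log2 fold change 3.44, SE 0.21, limma adjusted p = 0.000210), with log2 fold changes of 3.32 to 3.63 on leaving out any 1 library.

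Nefh, which encodes the heavy neurofilament protein (chromosome 11, 4938754 to 4948064), had normalised counts of 25.6, 199.9 and 201 in BrM libraries, against 3.05, 0.824 and 7.55 in parental libraries. BrM 2 and 3 were 7.82 times BrM 1 on average, and BrM 1 was 3.39 times the highest parental library. The parental values rested on 3, 1 and 8 reads. Nefh rose 25.8-fold (log2 fold change 4.69, SE 0.97, limma adjusted p = 0.0142). The fold was 50.6 without BrM 1. The call was lost without BrM 2 (adjusted p = 0.0535), BrM 3 (0.0515), parental 1 (0.0522) or parental 2 (0.0559).

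The genes of the partner neurofilament chains had no or nearly no reads. Nefl and Nefm, which encode the light and medium chains, had 0 reads in all 6 libraries. Nefl (68083863 to 68089095 on chromosome 14) lies wholly within the annotated span of Nefm (68082590 to 68124846) on the opposite strand, and their exons overlap. Ina, alpha-internexin (chromosome 19, 47014698 to 47025327), had 1 read in BrM 2 and 1 in parental 1. Its exons overlap those of Nt5c2 on the opposite strand, and whether reads were counted by strand is not given in the sources used here.

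Synm, the gene of the linker filament synemin (chromosome 7, 67730160 to 67759742), had normalised counts of 109.9, 46.9 and 58.7 in BrM libraries, against 93.6, 147 and 171 in parental libraries. The groups overlapped, since BrM 1 exceeded parental 1. Synm did not pass the test (log2 fold change -0.97, SE 0.42, limma adjusted p = 0.132). Without BrM 1 it passed as lower (log2 fold change -1.33, adjusted p = 0.0194), a fit in which the derivative rests on the 2 libraries closest to each other and in which 47.2% of all tested genes passed. Exons of Ttc23 overlap Synm on the opposite strand, and Ttc23 averaged 669 in BrM and 828 in parental libraries.

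**Figure D2:**
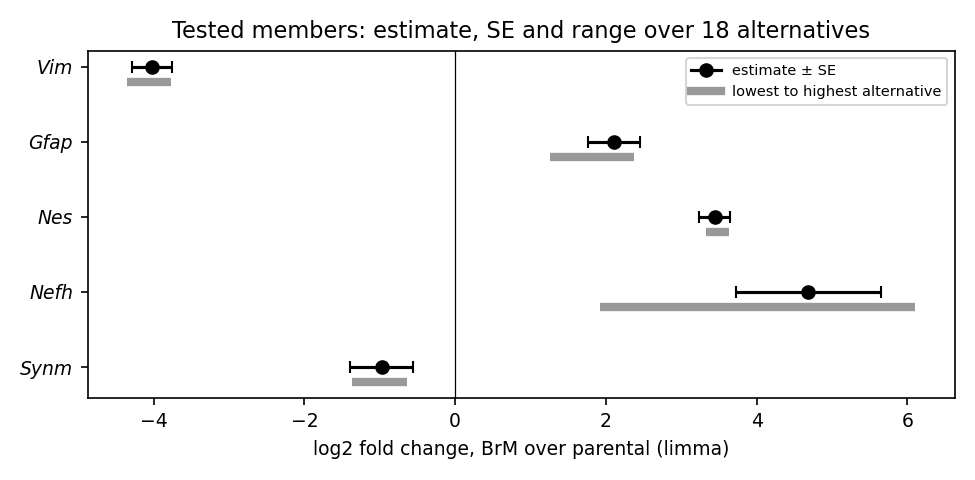
Log2 fold change of BrM over parental for the 5 tested genes, with black points and bars for the limma estimate ± SE over 3 BrM and 3 parental libraries, and grey bars from the lowest to the highest value over 18 alternative settings. Vim lies below 0 and Gfap, Nes and Nefh above 0 throughout, with the widest range for Nefh (1.92 to 6.11).

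Levels were compared between genes per kilobase of the principal transcript in GENCODE M21. On this scale Vim stood at 1233, 943 and 896 per kilobase in BrM libraries, against 11839, 23202 and 16237 in parental libraries. Nes stood at 704, 1029 and 1031 per kilobase in BrM libraries, against 85.7, 95.6 and 70.3 in parental libraries. In BrM the 2 genes were therefore close, and Vim was 1.75, 0.916 and 0.869 times Nes, against 138, 243 and 231 times Nes in parental libraries. Vim made up 61.0%, 45.6% and 44.4% of the summed per-kilobase level of the 10 genes in BrM libraries, against 99.1%, 99.5% and 99.4% in parental libraries. Nes made up 34.8%, 49.7% and 51.0% in BrM libraries, against 0.718%, 0.410% and 0.430% in parental libraries. These BrM shares depend on the length used. With summed exons as the length, Vim was 0.848, 0.444 and 0.421 times Nes in BrM libraries. Vim then made up 43.7%, 29.0% and 28.0% and Nes 51.5%, 65.4% and 66.5% in BrM libraries. In parental libraries Vim then made up 98.2%, 98.9% and 98.7%.

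**Figure D3:**
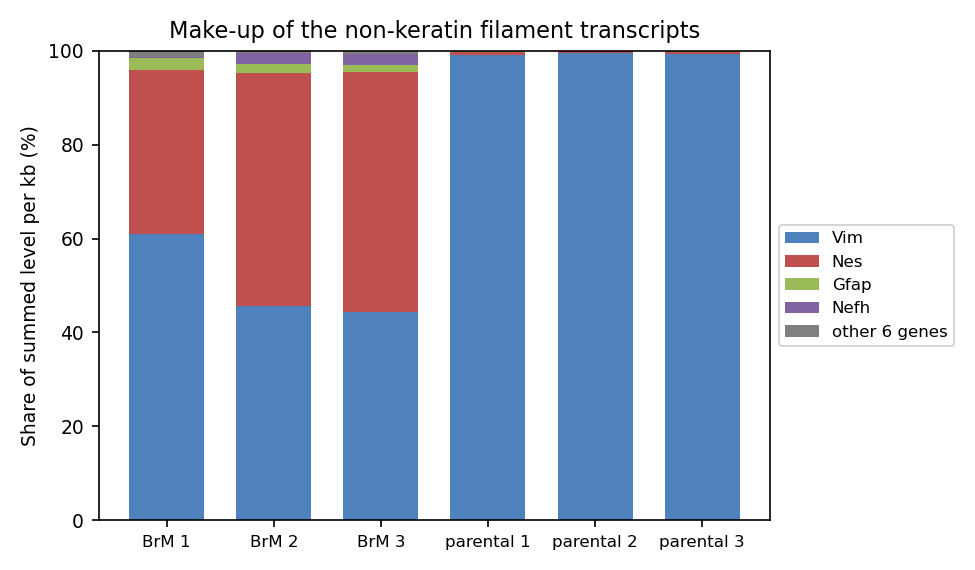
Share of each gene in the summed level per kilobase of principal transcript of the 10 genes, in percent, with 1 stacked bar for each library, BrM at the left and parental at the right. Vim fills over 99% of each parental bar, whereas Vim and Nes divide most of each BrM bar.

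In BrM the order per kilobase was Vim (1024 ± 182, SD, n = 3), Nes (921 ± 189), Gfap (39.9 ± 11.3), Nefh (35.6 ± 25.3), Synm (9.18 ± 4.28) and Prph (5.66 ± 1.96). The ranges of Vim and Nes overlapped, as did those of Gfap and Nefh. The range of Nefh also overlapped those of Synm and Prph, and the ranges of Synm and Prph overlapped each other. In parental cells the order was Vim (17093 ± 5730), Nes (83.9 ± 12.8), Synm (17.5 ± 5.05), Gfap (8.84 ± 1.92), Nefh (0.954 ± 0.858) and Prph (0.464 ± 0.444), and the ranges of Nefh and Prph overlapped. Among 22686 genes with a length, Vim ranked 2930th by mean level in BrM and 135th in parental cells, while Nes ranked 3239th in BrM and 9789th in parental cells. Dividing by the summed exons instead turned this order, with Nes (879.8 ± 180.0) above Vim (474 ± 84.2) in BrM. The summed exons of Vim are 4743 bases long and its principal transcript 2193.

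The total of the 10 genes was 2020.4 to 2071 per kilobase in BrM libraries and 11945 to 23326 in parental libraries. The keratins of simple epithelia (Krt7, Krt8, Krt18, Krt19 and Krt20) summed to 30.6 to 33.7 times that total in BrM libraries, against 1.31 to 2.16 times in parental libraries. With summed exons as the length the total was 1305 to 1503 per kilobase in BrM libraries and 5573 to 10844 in parental libraries, and the keratins were 41.8 to 51.0 times it in BrM libraries, against 2.79 to 4.58 times in parental libraries. Krt8 had normalised counts of 64388, 76754 and 68286 in BrM libraries, against 20801, 28556 and 35392 in parental libraries, and rose 2.52-fold (limma adjusted p = 0.00660). Of the 4 tested genes of this list, 3 rose and 1 fell, beside 12.2% and 15.8% of all tested genes. Their median log2 fold change was 1.26, against -0.05 over all tested genes. The call of Krt20 was lost without BrM 2, parental 1, parental 2 or parental 3, and in some other settings. The gene that fell was Krt19, with 29.3, 3.83 and 11.2 in BrM libraries, against 2424, 3439 and 530 in parental libraries (limma adjusted p = 0.00256). The log2 fold change of Krt19 was -7.08, and -7.74 without BrM 1. Krt20 had 299, 23.0 and 13.0 in BrM libraries, against 1.02, 2.47 and 0 in parental libraries, and its log2 fold change was 4.60, and 3.26 without BrM 1. It passed the filter through its BrM values alone, so a rise was the direction open to it. Of 6 tested keratins of stratified epithelia, 1 rose and 2 fell (median 0.34). The calls of Krt5 and Krt14 were lost without BrM 2, parental 1 or parental 2, that of Krt14 also without parental 3. Both were also lost in some other settings. Krt5, the gene that rose, also passed the filter through its BrM values alone. Krt17 fell to 50.0, 12.4 and 7.45 in BrM libraries, against 1370, 1301 and 702 in parental libraries (limma adjusted p = 0.00183). Its log2 fold change was -5.91, and -6.66 without BrM 1.

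Changes at the tested genes were set beside those of tested genes whose span reached within 500 kb of either end of the gene, a window chosen after the values were seen. Around Nes, 22 neighbours had a median log2 fold change of -0.37, with 1 higher and 3 lower. Around Vim, 5 neighbours had a median of -0.08, with 1 higher and 2 lower. Among them St8sia6, a sialyltransferase gene whose start lies 220.1 kb downstream of that of Vim, was the lowest (-5.41, limma adjusted p = 0.000121), while Cubn, upstream of Vim, was higher (1.51, adjusted p = 0.0253). Rsu1, also upstream of Vim, was lower (-0.86, adjusted p = 0.0298). Around Gfap, 3 of 24 neighbours were higher and none lower (median 0.46). Around Nefh, 3 of 16 were higher and none lower (median 0.20), and around Synm 2 of 5 were lower and none higher (median -0.41). Over all tested genes, 12.2% passed as higher and 15.8% as lower, and these small counts are descriptions. The medians of the chromosomes of Vim, Nes and Synm were -0.42, -0.30 and -0.33, and that of chromosome 11, which carries both Gfap and Nefh, was 0.11.

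**Figure D4:**
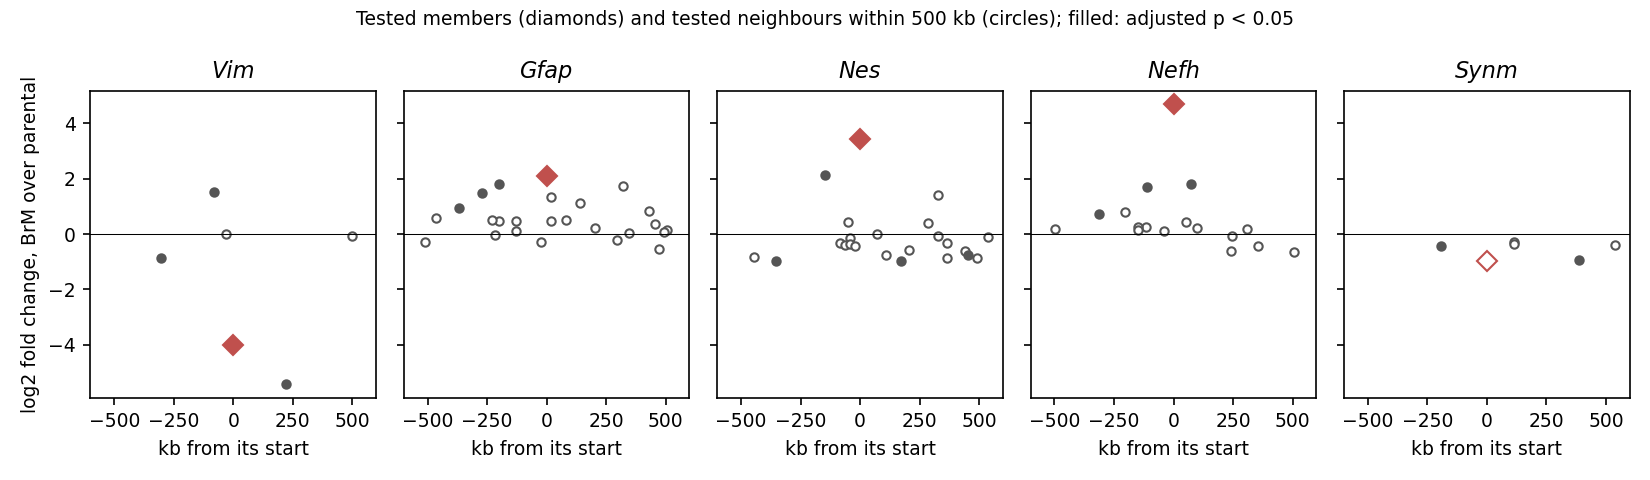
Log2 fold change of BrM over parental (vertical) for each tested gene (diamond) and its tested neighbours (circles), whose spans reach within 500 kb of the gene, by distance between start sites in kilobases along the gene's direction (horizontal, up to 538.9), filled where the limma adjusted p was under 0.05. Gfap, Nes and Nefh lie above all their neighbours, whereas St8sia6 lies below Vim.

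Other filament families and the genes that bind or modify filaments were set beside the 10 genes. The lamins, the nuclear intermediate filaments, gave 0 calls among 3 tested genes by limma, edgeR and DESeq2, with 0 at an unadjusted p under 0.05. Lmna had normalised counts of 12127, 32667 and 30892 in BrM libraries, against 20546, 23569 and 30459 in parental libraries, and BrM 1 was below all the others. Lmnb1 likewise stood at 2864, 8658 and 8274 in BrM libraries, against 4635, 6549 and 5574 in parental libraries, and passed as higher without BrM 1 (log2 fold change 0.61, limma adjusted p = 0.0216).

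Of the 4 tested genes among other filament family members (Sync, Bfsp1, Iffo1 and Iffo2), 0 passed by limma, edgeR or DESeq2, and 1 had an unadjusted p under 0.05. That was Sync, which encodes syncoilin of muscle, at 126, 30.6 and 40.0 in BrM libraries, against 169, 162 and 126 in parental libraries. It passed as lower without BrM 1 (log2 fold change -2.08, adjusted p = 0.00189). Of 8 plakins, the giant linkers that tie filaments to junctions and to other cytoskeletal fibres, 1 fell and 0 rose (median -0.18). Over all tested genes, 15.8% passed as lower and 12.2% as higher. The member that fell was Ppl, periplakin, with 3218, 2923 and 3152 in BrM libraries, against 4660, 4696 and 5636 in parental libraries (log2 fold change -0.69, SE 0.13, limma adjusted p = 0.0101, and 0.0520 without BrM 2). Plec, which encodes plectin, stood at 14580 to 18873 in BrM libraries and 14769 to 26055 in parental libraries.

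Of 12 kinases, deiminases, chaperones and degradation adaptors that act on filaments, 3 rose and 0 fell (median 0.15). Over all tested genes, 12.2% passed as higher and 15.8% as lower. Padi2, a deiminase that converts arginine in proteins such as vimentin to citrulline, had 2454, 1237 and 1362 in BrM libraries, against 266, 294 and 400.3 in parental libraries (5.08-fold higher, limma adjusted p = 0.00293). Cryab, the small heat shock protein that chaperones desmin and GFAP filaments, had 7126, 5637 and 5351 in BrM libraries, against 3470, 3756 and 3437 in parental libraries (1.69-fold higher, adjusted p = 0.0112). The third, the kinase gene Rock2, was 1.68-fold higher (adjusted p = 0.0189) and lost its call without BrM 2 (0.0748), BrM 3 (0.0732), parental 1 (0.0642) or parental 2 (0.0548).

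Of 19 transcription factors that earlier work links to these filament genes, 15 were tested, of which 0 rose and 8 fell (median -0.94). Of these 8, Mef2c passed the filter through its parental values alone, so a fall was the direction open to it. The count is a description, beside 12.2% of all tested genes called higher and 15.8% called lower. Zeb2 and Zeb1, factors of the epithelial-mesenchymal transition, had 239, 236 and 258 (Zeb2) and 53.7, 26.8 and 44.7 (Zeb1) in BrM libraries, against 3001, 2247 and 2380.4 (Zeb2) and 1046, 1443 and 1039 (Zeb1) in parental libraries, with limma adjusted p-values of 0.000121 and 0.000256. Snai2, of the same group, had 15.9, 11.5 and 16.8 in BrM libraries, against 109, 217 and 129 in parental libraries (adjusted p = 0.00183). Snai1 and Twist1, also of that group, did not fall and did not pass (log2 fold change 0.21 and 0.55, limma adjusted p = 0.738 and 0.138). Twist1 had 753, 732 and 719 in BrM libraries, against 616, 571 and 358 in parental libraries. Sox9 had 3839, 3979 and 3778 in BrM libraries, against 10754, 9434 and 8172 in parental libraries (adjusted p = 0.00130). Stat3, a factor known to drive Gfap in astrocytes and named here after its values were seen, stood at 3164 to 5470 in BrM libraries and 8950.1 to 13368 in parental libraries (log2 fold change -1.48, adjusted p = 0.00735). Sox2, which is linked to Nes in neural progenitors, had a normalised count of 2.44 in BrM 1 and 0 in the other libraries.

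The rise of Gfap and Nes was read beside markers of brain cells, because the derivative is labelled brain metastatic. Of the 9 astrocyte markers, 6 were tested, of which 0 rose and 4 fell, with 0 higher also by edgeR and DESeq2. Of these 4, Slc1a3, Aldh1l1 and S100b passed the filter through their parental values alone, so the count is a description. Over all tested genes, 12.2% passed as higher and 15.8% as lower. The summed level of the list was 14989 to 16493 in BrM libraries and 18879 to 28264 in parental libraries, most of it from Gja1, the gap junction gene that epithelial cells also express. Slc1a3, the glial glutamate transporter, had 0, 0.956 and 0 in BrM libraries, against 730, 1806 and 2655 in parental libraries (limma adjusted p = 0.000154). Aldh1l1 had 3.66, 0 and 0 in BrM libraries, against 2615, 2238 and 839 in parental libraries (adjusted p = 0.000380). Slc1a2 and S100b fell as well (adjusted p = 0.00248 and 0.00133). Aqp4, a defining astrocyte gene, was at 0 in all BrM libraries and at 1.02, 0 and 0 in parental libraries. Fabp7 and Gjb6 were also at 0 in all BrM libraries. In parental libraries they had 9.16, 4.12 and 6.61 (Fabp7) and 1.02, 0 and 1.89 (Gjb6). Aqp4, Fabp7 and Gjb6 were thus low in both groups and were not tested. Of the 6 tested markers, Gja1 and Aldoc did not pass (log2 fold change 0.06 and -2.26, limma adjusted p = 0.869 and 0.0599). The 4 that fell are named for their fall, so their direction beside that of Gfap is no test. The source of the Gfap reads was not tested.

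**Figure D5:**
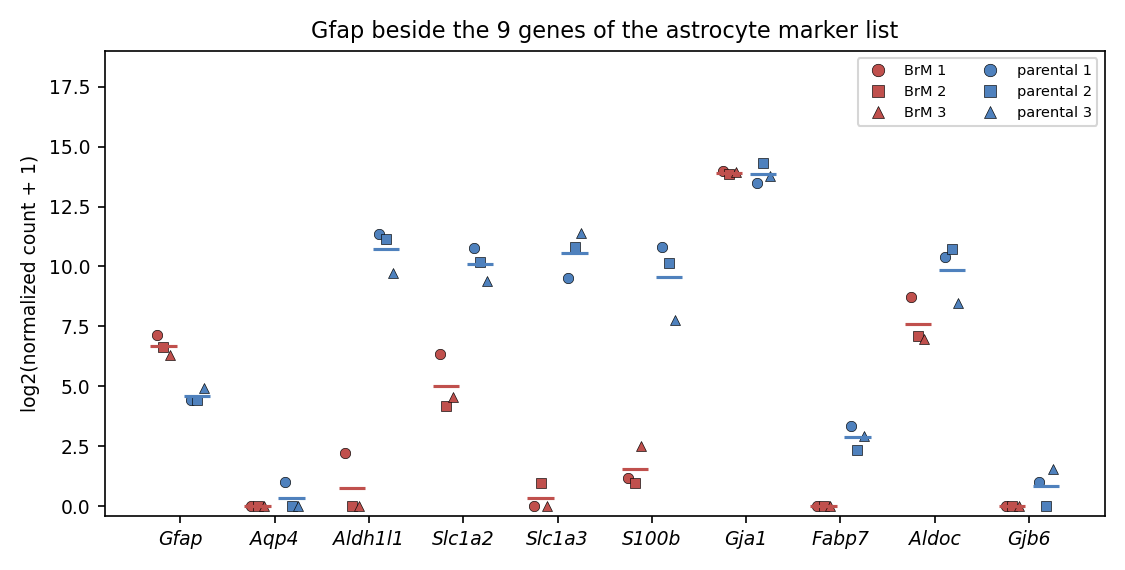
Normalised counts on the scale log2(value + 1) of Gfap and of the 9 genes of the astrocyte marker list in each library, BrM in red at the left of each gene and parental in blue at the right, with a bar at the mean of n = 3. Gfap is higher in BrM, Aldh1l1, Slc1a2, Slc1a3 and S100b are higher in parental libraries, and Gja1 overlaps.

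Of 8 neuron markers, 2 were tested and 1 rose (Map2, adjusted p = 0.0345, lost without BrM 2, BrM 3, parental 1 or parental 3 at adjusted p of 0.110, 0.113, 0.0657 and 0.0706). Their sum was 1909 to 2095 in BrM libraries and 974.9 to 1483 in parental libraries, nearly all of it Map2, while Rbfox3, which defines neurons, was at most 1.22. Of 5 oligodendrocyte markers 2 were tested and 1 rose (Mbp, adjusted p = 0.00895), with sums of 2109 to 2194 in BrM libraries and 980.0 to 1303 in parental libraries and Olig1 and Olig2 at 0 in all libraries. Of 7 muscle markers 4 were tested and 1 fell, and Myog was at 0 in all libraries. The call, on Myl9, was lost without BrM 2 (adjusted p = 0.0556), parental 2 (0.0686) or parental 3 (0.0598). Myl9 passed the filter through its parental values alone. These single calls stand beside 12.2% of all tested genes called higher and 15.8% called lower.

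Markers of fibroblasts and pericytes, cells that express Vim, were set beside it. Of 9 fibroblast markers, 5 were tested, of which 3 fell and 0 rose (the call of Col1a2 was lost without BrM 2, BrM 3 or parental 1), with summed levels of 223 to 1112 in BrM libraries and 3646 to 13340.4 in parental libraries. Of 5 pericyte markers, 4 were tested, of which 3 fell and 0 rose (the call of Cspg4 was lost without BrM 2, BrM 3 or parental 2), with sums of 31.6 to 74.5 in BrM libraries and 1088 to 3791 in parental libraries. Dcn, Col1a2, Pdgfrb, Kcnj8 and Cspg4 passed the filter through their parental values alone, so a fall was the direction open to them and these counts are descriptions, beside 15.8% of all tested genes called lower. Dcn was at 0 in all BrM libraries, against 857, 374 and 232 in parental libraries, whereas Lum was at 0 in all 6 and Thy1 was at most 1.65. Basal epithelial markers gave 1 higher and 3 lower of 5 tested, with sums of 2307 to 5163 in BrM libraries and 10663 to 14191 in parental libraries, and Acta2 had 4.88, 1.91 and 2.79 in BrM libraries, against 972, 2861 and 2205 in parental libraries (adjusted p = 0.000156). Acta2 and Cnn1 passed the filter through their parental values alone and Krt5 through its BrM values alone. The basal counts are therefore descriptions, and Krt5 and Krt14 are also counted among the stratified keratins. Luminal markers gave 3 higher and 1 lower of 8 tested, beside 12.2% and 15.8% of all tested genes. Of the 3, Krt8 and Krt18 are also counted among the simple keratins. The lower one, Cdh1, lost its call without BrM 2, BrM 3 or parental 2. Endothelial markers summed to at most 25.6 in any library and none was tested. Of 6 macrophage and microglia markers listed, 3 were tested and 1, Csf1r, rose, while Ptprc was at most 4.88. Aif1 went the other way and did not pass (log2 fold change -2.39, limma adjusted p = 0.112). It had 42.7, 1.91 and 5.59 in BrM libraries, against 55.0, 41.2 and 50.0 in parental libraries. Csf1r passed the filter through its BrM values alone. The sum of these markers was 3042, 472 and 454 in BrM libraries, against 653, 267 and 269 in parental libraries, and Cd68 alone had 2670 in BrM 1, against 209 and 211 in BrM 2 and 3. The part of other cells in these results was not tested, and in bulk RNA fewer cells of a type and less RNA per cell cannot be told apart.

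Genes most like Vim, Nes and Synm over the 6 libraries were named by the Pearson correlation of log2 of the value plus 1, over the 11348 genes whose mean reached 100. The libraries form 2 groups, so these values chiefly describe the same step between groups and are given without a test. For Vim they were Fscn1, an actin-bundling gene (0.9997), then Col12a1, Ids, Acta2 and Msrb3 (0.9980 to 0.9981). For Nes they were Suox (0.9993), Eno3, Pdxp, Six4 and Psmc1 (0.9976 or above). For Synm they were Pik3c2a, Fam102b, Myh9, Gabre and Lrrc75a (0.987 to 0.994).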

How the data were processed

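Expression was measured by RNA-seq in 3 BrM and 3 parental MMTV-ErbB2 libraries, and the 5 libraries of the human line HCC1954 are not analysed here. The signal values deposited by the authors are normalised read counts. Per the submitters' processing notes the tools were STAR and HTSeq and the builds GRCh38 and GRCm38, while versions, the scaling tool and the strand setting are not given in the sources used here. In each library 100% of values above 0 came out as whole reads (tolerance 0.01 read) once divided by the value of 1 read, and those reads fed the count tests. Of the 24062 genes listed, 4879 were at 0 in all libraries and 27 had symbols turned into dates.

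Genes with a mean of at least 10 (13821) were tested on log2(value + 1), using limma 3.58.1 (R 4.3.3) with an intensity trend and the group as the single term. Tests were two-sided, and calls needed a Benjamini-Hochberg adjusted p under 0.05. Fold changes keep the log2(value + 1) scale and understate the change of low genes. The limma and edgeR fits were run on simulated counts drawn independently for each library. The simulation did not copy the closeness of BrM 2 and 3, so it cannot judge calls that depend on it. Alternatives were edgeR 4.0.16, DESeq2 1.42.0, other scalings, pseudocounts, filters, moderation, weights, a replicate block and leaving out each library. Averaging BrM 2 and 3 was added after seeing the data. Per-kilobase levels used GENCODE M21 lengths.

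The members, gene lists and tests were chosen with earlier results of these data known. All 10 genes were named. Other genes were named by rule (up to 4 called per list by p-value or else the 2 of highest mean, and the 5 most alike to each of the 3 members of highest mean), and those that bear on the filament genes are printed, together with single markers at or near 0, chosen after seeing values. Neighbours, Bfsp1, Iffo1, Plec, Stat3, Sox2, Snai1, Twist1, Mef2c, Cnn1, Epcam, Krt7, Gja1, Aldoc, Cd68 and Aif1 were named outside the rule. Intervals and floors cover counting error only. Figures used matplotlib 3.10.9 under Python 3.11.15.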

Additional observations from a re-analysis of the deposited data

How the results depend on the processing

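Over 18 alternatives the calls of Vim (lower), Nes and Gfap (higher) held in each, with log2 fold changes of -4.35 to -3.77, 3.32 to 3.63 and 1.26 to 2.38. Nefh kept its direction in all 18 and its call in 13, with log2 fold changes of 1.92 to 6.11 (adjusted p 2.59e-06 to 0.0559). Its lowest value came from log2(CPM + 1), where 1 is added to smaller numbers, and it lost the call with BrM replicates 2 and 3 averaged (adjusted p = 0.0522). Synm passed as lower with sample quality weights (adjusted p = 0.00171), which made 2 members called lower, and without BrM 1. Leaving out 1 library gave 1 to 2 members called lower, 2 to 3 called higher and 2191 to 6519 genes called in all. The 3881 genes called became 8485 with sample quality weights and 2275 with BrM 2 and 3 averaged. Calls were 43.6% higher in BrM, and 56.0% with quantile normalization, where the median log2 fold change moved from -0.05 to 0.09.

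Of 46 called genes carried through the alternatives none reversed, and 12 lost the call at least once. Genes near 0 and not called changed sign. Iffo2 was at 0.0085 by edgeR, 0.019 by DESeq2, 0.058 by log2(CPM + 1), 0.10 by quantile normalization and 0.15 with weights, and between -0.14 and 0.17 on leaving out 1 library. Lmna was at 0.033 by edgeR, 0.040 by DESeq2 and 0.39 with weights, and between -0.34 and 0.37 on leaving out 1 library. With weights Lmna and Lmnb1 passed as higher, so that 2 lamins were called. Lmnb1 was at -0.17 with BrM 2 and 3 averaged, and between -0.18 and 0.61 on leaving out 1 library. The cause was not tested.

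With the replicate number as a block, 4040 genes were called, with 3 members higher and 1 lower as without the block. Deviations of same-numbered libraries correlated at 0.30, -0.09 and 0.33, and BrM 2 correlated best with parental 3 (0.31). With so few libraries in each group, these values cannot show whether same-numbered libraries share more than a number. Des, Ina, Nefl and Nefm had too few reads to be compared. Exons of each overlap those of a gene on the opposite strand (Gm15179 for Des). Whether this overlap lowered their counts was not tested.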
